A study of Mus musculus with 100 samples.

Results

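The 38 listed Hox genes were followed through 37 RNA-sequencing libraries of mouse cells and embryos. They were taken by symbol, after the transcript accessions of the tables had been matched to RefSeq gene names, and are 38 of 23109 gene-level entries: 10 of the Hoxa cluster, 10 of Hoxb, 9 of Hoxc and 9 of Hoxd. By paralog group, 7 are termed anterior here (groups 1 to 3), 15 central (4 to 8) and 16 posterior (9 to 13). Each of the 38 symbols was present in every table.

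The study concerns MLL3 and MLL4, products of Kmt2c and Kmt2d, which methylate histone H3 at enhancers. All cultured cells carry Mll3-/-. The flox reference cells carry Mll4flox/flox, and the KI cells carry Mll4KI/KI as clones 27 and 48, which recur in every culture. What KI stands for is not given in the labels; the title of the series names methyltransferase activities. Embryonic stem cells (ESCs) and their embryoid bodies at day 4 and day 10 (EBs, aggregates grown without LIF) had 1 flox and 2 KI libraries each. Neural progenitors of day 8 and neurons of day 16 came from EBs given 5 µM retinoic acid after day 4. Trophectoderm cultures (TE, day 6) came from cells with a doxycycline-inducible lentiviral T7-tagged CDX2 transgene, kept with FGF-4, heparin and doxycycline, and both genotypes received it. Extraembryonic endoderm cultures (ExEn, day 5) received 0.1 µM retinoic acid and Activin A. Each neural, TE and ExEn group had 2 libraries. KI embryos are Mll3flox/KI;Mll4flox/KI;Sox2-Cre and control (Ctr) embryos are Mll3flox/KI;Mll4flox/+;Sox2-Cre, with 3 whole embryos per group at E8.5 and at E9.5. Both embryo groups carry the Mll3 alleles and Sox2-Cre, a driver that acts in the epiblast, so the groups differ in the Mll4 allele beside the floxed one (KI or wild-type).

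Hox genes encode homeodomain transcription factors that give cells their position along the head-to-tail axis. Within a cluster they are switched on in order, anterior paralogs first and posterior paralogs last, and the same order is laid out along the body. Retinoic acid induces anterior members, CDX, WNT and FGF signals in the tail bud promote later ones, Polycomb complexes keep silent members off, and PBX and MEIS proteins bind DNA beside the Hox proteins.

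Start-site sequence is shown for 5 members whose levels in E9.5 embryos differed between the genotypes: Hoxd13, Hoxd12, Hoxd10 and Hoxa11, which were lower in KI, and Hoxd1, which was higher and lies at the other end of the Hoxd cluster. RefSeq start sites (GRCm38.p6) were matched for 22 of the 38 members, in 24 windows. Each window is the 250 bases before the start, written 5′ to 3′ on the gene's strand with every CG dinucleotide in capitals. They lie at chr2:74667975-74668224 (Hoxd13), chr2:74674763-74675012 (Hoxd12), chr2:74691641-74691890 (Hoxd10) and chr2:74762730-74762979 (Hoxd1), all on the + strand, and at chr6:52245811-52246060 (Hoxa11) on the - strand.
Hoxd13: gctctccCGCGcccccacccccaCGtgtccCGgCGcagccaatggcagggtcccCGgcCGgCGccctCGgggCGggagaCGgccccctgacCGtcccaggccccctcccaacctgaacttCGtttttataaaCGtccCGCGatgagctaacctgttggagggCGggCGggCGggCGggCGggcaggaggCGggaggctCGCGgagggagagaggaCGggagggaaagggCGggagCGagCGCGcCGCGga
Hoxd12: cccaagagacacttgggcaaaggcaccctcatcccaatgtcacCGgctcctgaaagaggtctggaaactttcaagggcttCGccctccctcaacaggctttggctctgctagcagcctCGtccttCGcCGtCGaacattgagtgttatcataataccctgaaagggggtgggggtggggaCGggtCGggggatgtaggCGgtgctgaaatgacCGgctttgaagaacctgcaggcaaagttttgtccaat
Hoxd10: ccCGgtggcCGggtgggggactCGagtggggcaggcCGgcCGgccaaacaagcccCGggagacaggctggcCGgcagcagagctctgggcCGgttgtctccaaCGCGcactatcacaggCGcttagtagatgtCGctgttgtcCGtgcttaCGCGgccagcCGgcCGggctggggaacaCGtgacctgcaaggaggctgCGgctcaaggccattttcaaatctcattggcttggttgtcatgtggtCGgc
Hoxa11: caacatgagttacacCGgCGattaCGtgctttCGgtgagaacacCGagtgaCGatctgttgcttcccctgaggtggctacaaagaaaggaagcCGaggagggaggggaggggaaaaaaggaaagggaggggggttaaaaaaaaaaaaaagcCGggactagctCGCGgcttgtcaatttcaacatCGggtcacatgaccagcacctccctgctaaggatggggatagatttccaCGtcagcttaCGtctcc
Hoxd1: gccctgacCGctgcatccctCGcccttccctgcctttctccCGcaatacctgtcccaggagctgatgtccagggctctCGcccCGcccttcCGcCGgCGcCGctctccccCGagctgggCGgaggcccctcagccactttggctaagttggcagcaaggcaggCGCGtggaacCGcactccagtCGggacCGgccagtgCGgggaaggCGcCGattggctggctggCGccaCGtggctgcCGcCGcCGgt
The Hoxd13 window held 31 CG, that of Hoxd1 24, that of Hoxd10 20, that of Hoxa11 13 and that of Hoxd12 10. The median was 12.5 over the 24 windows of the members (range 2 to 35) and 6 over all 32851 windows of that length. The genes that were lower and the gene that was higher therefore overlapped in this count. TGATTGAT, a joint PBX and HOX motif searched on both strands, was in the windows of Hoxd11 and Hoxa2 and in 0.67% of all windows. CAATAAA, a motif of caudal and posterior Hox proteins, was in the window of Hoxb8 and in 4.2% of all windows. Neither was in the 5 windows printed.

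Libraries held between 18.9 and 59.9 M gene-level reads, so that 3 reads, the most that a count of 0 allows, equal 0.053 to 0.180 CPM (reads scaled to the same library size after TMM, the edgeR correction of library sizes); this limit covers counting error only. Kmt2c, the gene of the null Mll3 allele, was read at 27.99 to 101.2 CPM in the Mll3-/- cultures; the labels do not say which part is deleted, so whole-gene counts check neither allele. Kmt2d was called higher in KI TE (0.35 on the log2 scale) and lower in KI ExEn (-0.20), and it was not called in the neural cultures or the embryos; Kmt2c was called higher in KI TE (0.52) and in E9.5 KI embryos (0.34). Of the 38 members 19 overlap another annotated gene, and 10 of them another listed Hox gene (Hoxa3 with Hoxa4, Hoxa5 and Hoxa6, Hoxb3 with Hoxb4, Hoxd3 with Hoxd4, Hoxd10 with Hoxd11), so their reads may be shared. A gene is termed called when its adjusted p in edgeR's quasi-likelihood test was under 0.05 over all genes tested. Where nothing in the labels says that libraries came from separate cultures, the tests measure only the spread between these libraries.

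Summed Hox reads were most abundant in the neural cultures and fewest in stem cells and KI EBs of day 4. Reads of the 38 members made up 26.34 to 31.36 CPM, here without the TMM correction, in the ESC libraries, 17.95 to 89.98 at EB day 4, 178.1 to 252.3 at EB day 10, 61.67 to 123.2 in TE, 292.1 to 537.7 in ExEn, 925.5 to 1236 in embryos and 2709 to 4848 in the neural libraries. Levels between genes are compared per length, on the deposited RPKM. On that scale Hoxc12 (5.19) and Hoxc13 (4.41) led in flox ESCs, while Hoxb9 (221), which patterns the thoracic skeleton, led in flox neural progenitors and Hoxb8 (260.5) in flox neurons. In ESCs the posterior members held 81.54% to 88.83% of the summed Hox RPKM.

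**Figure D1:**
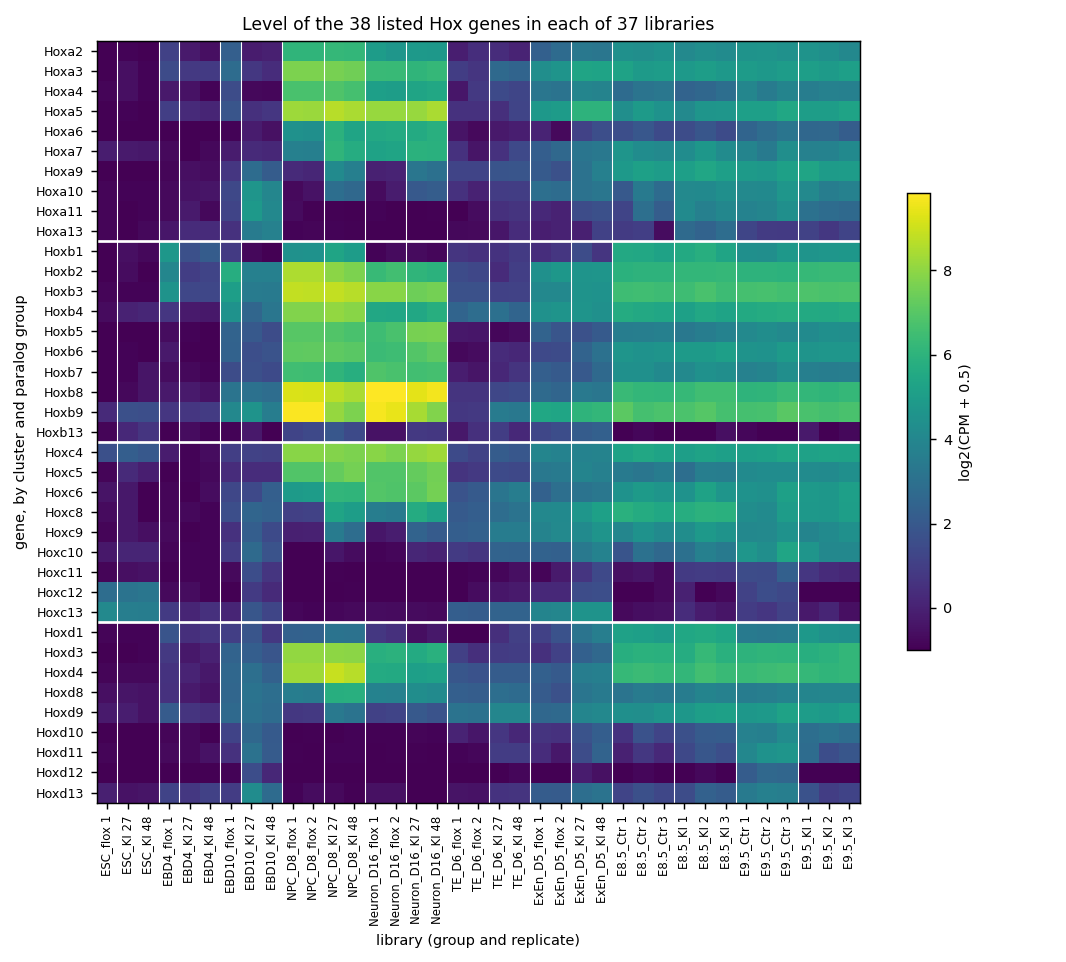
Colour gives log2(CPM + 0.5) of each of the 38 members (rows, by cluster and paralog group) in each of the 37 libraries (columns, by group and replicate). Stem cells show signal mainly at Hoxc12, Hoxc13 and Hoxc4, and the neural libraries at the anterior and central members and at Hoxb9.

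In E8.5 embryos, 6 of the 15 tested posterior Hox genes were higher in KI than in control. Of 37 members tested, 7 rose and none fell, against 5.46% of all genes called (3.63% higher, 1.83% lower). Of these 7, 6 are posterior and 1 is central (Hoxb6). The median log2 fold change was 1.74 over the 8 tested members of groups 11 to 13, 0.54 over groups 9 to 10, -0.02 over the central and 0.09 over the anterior members, beside -0.01 over all genes.

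Hoxa13, which patterns digits, hindgut and the urogenital tract, had 1.35, 1.54 and 0.147 CPM in the control embryos and 6.27, 4.95 and 6.86 in the KI embryos. It rose by 2.55 ± 0.46 (log2 fold change ± SE, edgeR adjusted p = 0.00261). Every KI embryo lay above every control embryo. Hoxc11 had 0.201, 0.269 and 0.0978 CPM in controls and 1.31, 1.42 and 1.31 in KI (2.76 ± 0.51, edgeR adjusted p = 0.00247). Hoxa11, needed for forearm and kidney, had 1.85, 7.16 and 4.06 CPM in controls against 17.6, 12.5 and 15.6 in KI (1.79 ± 0.37, edgeR adjusted p = 0.0178). Hoxa10 had 3.61, 10.1 and 6.30 CPM against 16.5, 16.9 and 20.5 (1.41 ± 0.31, edgeR adjusted p = 0.0254). For both, the first control embryo was the lowest and the second the highest, and the groups did not overlap. Hoxd11, a partner of Hoxa11 in the forearm, had 0.501, 1.19 and 0.684 CPM against 2.08, 3.25 and 2.57 (1.69 ± 0.40, edgeR adjusted p = 0.0242). Hoxd9 (0.54 ± 0.14) and Hoxb6 (0.39 ± 0.11) were the smallest of the called differences. Hoxd13 was not called, with 1.80, 2.62 and 2.00 CPM in controls and 2.39, 4.67 and 3.93 in KI.

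With the title number (shared by 1 control and 1 KI embryo) as a block, Hoxd1, Hoxd8 and Hoxd10 were also called (edgeR adjusted p = 0.031, 0.0439 and 0.0237). That gives 10 members, while calls over all genes rose from 843 to 1304. Leaving out 1 embryo left between 2 and 6 calls. They fell to 2 without control 3 or KI 3, to 3 without KI 2 and to 4 without KI 1 or control 1. Over all genes the 843 calls fell too, to 363 without control 3 and to 377 without KI 3. Hoxa13 and Hoxc11 remained called in every case. In a fit of the E8.5 embryos alone Hoxa10 and Hoxa11 were not called (edgeR adjusted p = 0.0539 and 0.0875), nor was Hoxb6 with reads summed over transcripts (0.0555).

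In E9.5 embryos the direction was the opposite. Of 37 members tested, 9 fell and 2 rose, against 29.5% of all genes called (14.6% higher, 14.9% lower). Of the 9 that fell, 8 are posterior and 7 belong to groups 11 to 13, where 8 were tested. The median log2 fold change was -2.15 over those 8 members (Hoxc12 and Hoxd12, fitted from a group at 0, lie below it also at their bounds), -0.13 over groups 9 to 10, -0.01 over the central members and 0.13 over the anterior members, beside 0.01 over all genes.

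Hoxd13 had 10.5, 12.6 and 11.9 CPM in the control embryos and 2.82, 1.46 and 1.76 in the KI embryos (-2.53 ± 0.28, edgeR adjusted p = 2.24e-06). Its neighbour Hoxd12 had 3.91, 5.87 and 5.53 CPM in controls and no read in any KI embryo, which makes it at least 40.7-fold lower (3 reads in each KI library as the limit, edgeR adjusted p = 9.09e-07). Hoxd11, the next gene, had 15.8, 22.6 and 24.4 CPM against 6.53, 2.46 and 3.22 (-2.36 ± 0.33, edgeR adjusted p = 8.51e-05). These genes sit side by side at the posterior end of the Hoxd cluster, and in each of them every KI embryo was below every control embryo. Hoxd10 had 12.9, 12.2 and 18.1 CPM against 6.94, 8.19 and 6.91 (-0.97 ± 0.25, edgeR adjusted p = 0.00704). Hoxd9, the gene after it, was not called (0.03 ± 0.14, edgeR adjusted p = 0.881), with 26.1, 27.3 and 37.8 CPM in controls and 30.8, 28.0 and 34.5 in KI.

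In the Hoxc cluster, Hoxc12 had 1.72, 2.45 and 2.02 CPM in controls and no read in KI, at least 16.4-fold lower (edgeR adjusted p = 0.000147). Hoxc11 had 2.35, 2.27 and 4.43 CPM against 1.14, 0.752 and 0.644 (-1.82 ± 0.41, edgeR adjusted p = 0.00245). Hoxc13, known for its part in hair and nails, had 1.41, 1.15 and 1.67 CPM against 0.327, 0.585 and 0.172 (-1.94 ± 0.57, edgeR adjusted p = 0.0146). The 3 most posterior genes of this cluster were thus each lower in KI. In the Hoxa cluster, Hoxa11 had 13.3, 14.6 and 20.7 CPM in controls and 7.80, 6.56 and 5.96 in KI (-1.26 ± 0.35, edgeR adjusted p = 0.0204), while Hoxa13, with 1.92, 1.37 and 1.32 CPM against 1.67, 1.17 and 1.84, was not called. The central Hoxd4 was lower by a small amount (-0.28 ± 0.08, edgeR adjusted p = 0.0172).

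The 2 members that rose at E9.5 are anterior. Hoxd1, an anterior paralog at the far end of the Hoxd cluster, had 10.1, 9.61 and 10.5 CPM in controls and 27.03, 21.6 and 20.4 in KI (1.19 ± 0.12, edgeR adjusted p = 8.35e-07). Hoxb2, which patterns the hindbrain, had 64.3, 62.7 and 60.9 CPM against 76.6, 81.4 and 79.7 (0.34 ± 0.07, edgeR adjusted p = 0.0007). Without 1 embryo, Hoxa11 was not called in the absence of control 3, KI 2 or KI 3 (edgeR adjusted p = 0.0598, 0.0731 and 0.0799), Hoxd4 in that of control 3 or KI 2 (0.0511 and 0.0748) and Hoxc13 in that of KI 3 (0.0772).

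**Figure D2:**
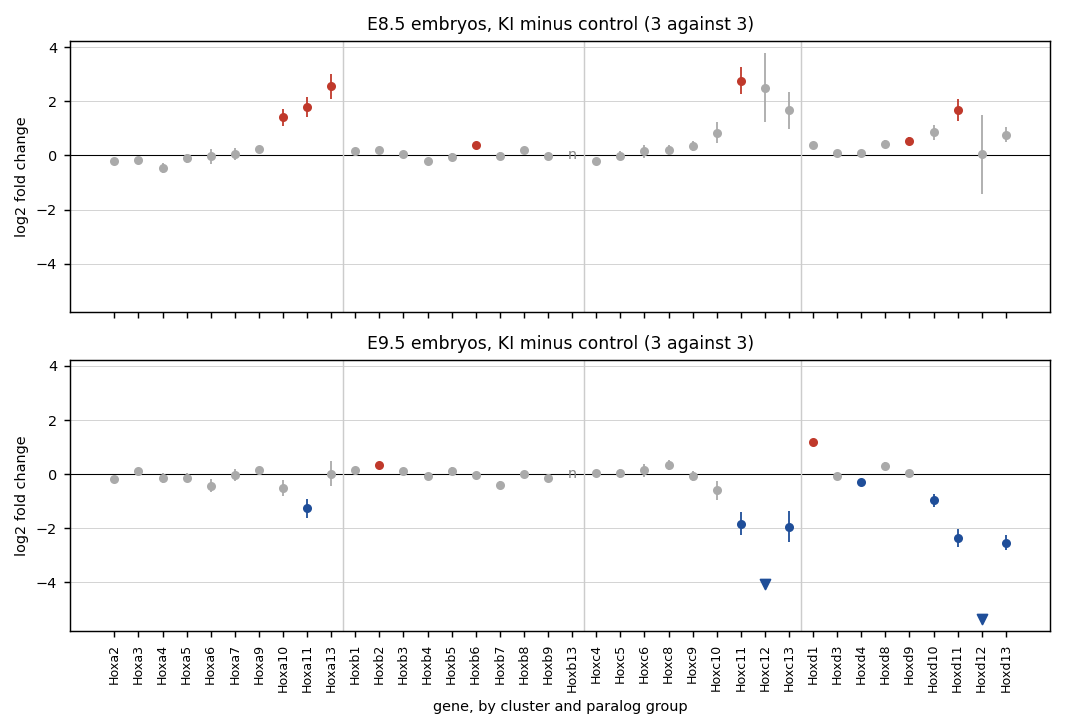
Points are log2 fold changes of KI against control embryos with their SE for each member, in cluster order, at E8.5 (top) and E9.5 (bottom); red is higher and blue lower at an adjusted p under 0.05, grey was not called and n was not tested. Blue triangles are the lower bounds of Hoxc12 and Hoxd12, which had no reads in the E9.5 KI embryos; the posterior ends of the Hoxa, Hoxc and Hoxd clusters lie above 0 at E8.5, and those of Hoxc and Hoxd lie below it at E9.5.

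The change between the stages itself was tested as the difference of the KI effects. Of 37 members, 10 had a lower and 1 a higher effect at E9.5 than at E8.5, against 6.63% of all genes called (3.39% higher, 3.24% lower). The 10 are Hoxa10, Hoxa11, Hoxa13, Hoxc11, Hoxc12, Hoxc13, Hoxd10, Hoxd11, Hoxd12 and Hoxd13, all posterior, and the 1 is Hoxd1. At E8.5 Hoxd12 had 0 to 2 reads in each embryo and Hoxc12 0 to 11, so their effect there was barely measured. They passed the filter through the E9.5 controls (100 to 163 and 44 to 68 reads). With 1 embryo left out, Hoxa10, Hoxa13, Hoxc12, Hoxc13 or Hoxd12 lost its call in at least 1 case, while Hoxa11, Hoxc11, Hoxd1, Hoxd10, Hoxd11 and Hoxd13 kept theirs. The embryos whose absence did so were E8.5 KI 3, E8.5 control 3, E9.5 KI 2 and E9.5 KI 3 for Hoxa10, E8.5 KI 1, E8.5 KI 3, E9.5 control 1 and E9.5 KI 2 for Hoxa13, E8.5 KI 1 for Hoxc12 and Hoxc13, and E8.5 KI 2 for Hoxd12. In control embryos 11 of 15 posterior members tested rose from E8.5 to E9.5 and none fell (all members 16 higher and 3 lower, against 24.2% of all genes called). Hoxd11 went from 0.501 to 1.19 CPM at E8.5 to 15.8 to 24.4 CPM at E9.5 in controls (4.68 ± 0.39), and Hoxc10 rose by 2.35 ± 0.39. In KI embryos 1 posterior member rose (Hoxd10, 1.08 ± 0.27) and 4 fell (Hoxa11, Hoxa13, Hoxc12 and Hoxd13, the groups overlapping for the latter pair), with 8 members higher and 11 lower in all, against 32.5% of all genes called. Leaving out 1 embryo moved that count of 19 to between 11 and 16, lowest without E9.5 KI 2 and at 12 without E8.5 KI 3 or E9.5 KI 3. KI embryos at E8.5 thus held Hoxa11 at levels (12.5 to 17.6 CPM) that overlapped those of control embryos at E9.5 (13.3 to 20.7), and at E9.5 held less.

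The share of summed Hox RPKM from groups 11 to 13 followed the same course. It was 0.730% to 1.50% in control and 2.91% to 3.88% in KI embryos at E8.5, and 7.20% to 8.97% in control and 1.71% to 2.90% in KI embryos at E9.5. The share of the anterior members was 32.11% to 33.25% in control and 30.58% to 33.22% in KI embryos at E8.5, and 22.73% to 28.05% and 31.15% to 32.44% at E9.5. Summed Hox RPKM overlapped at E9.5 (376.5 to 445.8 in control, 363.9 to 387.7 in KI) and was higher in KI at E8.5 (324.9 to 352.1 and 359.6 to 417.5).

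**Figure D3:**
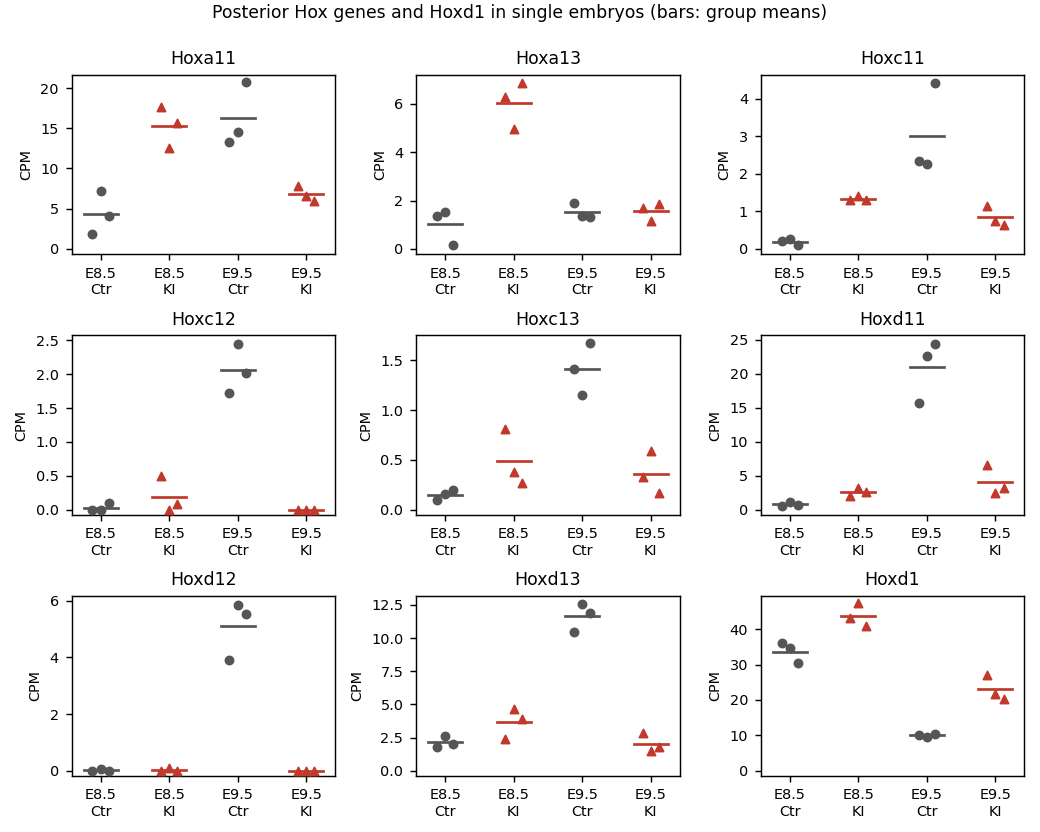
Each point is 1 embryo and each bar a group mean, in CPM on linear axes from 0, for 8 members of groups 11 to 13 and for Hoxd1. Hoxa13 is at 4.95 to 6.86 CPM in E8.5 KI embryos and at 1.54 or less in their controls, and Hoxc12 and Hoxd12 are present in the 3 control embryos of E9.5 and at 0 in the 3 KI embryos.

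In whole embryos, fewer cells of a type and less RNA per cell cannot be told apart, and several marker lists moved with the genotype. Of 13 lists, the summed CPM of 2 was higher and of 4 lower in KI without overlap at E8.5, and of 5 and 5 at E9.5. How many of all genes did not overlap was not counted, here or in the cultures below. A sum follows its most abundant genes, so the genes called are counted beside it, and control values come first. The 6 somite markers summed to 141.5 to 187.7 against 77.46 to 83.41 CPM at E8.5 (4 genes called lower, none higher) and to 203.2 to 218.0 against 84.48 to 104.5 at E9.5 (6 lower). Presomitic and tail bud markers, the tissue in which posterior Hox genes are first activated, summed to 126.0 to 181.6 against 96.64 to 130.3 CPM at E8.5, where the groups overlapped (1 of 6 lower), and to 71.72 to 94.89 against 32.45 to 52.14 at E9.5, where they did not (4 lower, 1 higher). Limb and lateral plate markers summed to 172.5 to 274.6 against 381.8 to 407.5 CPM (3 of 6 higher, none lower) and to 186.4 to 203.8 against 267.7 to 306.9 (4 higher, 1 lower). Trophoblast markers summed to 479.1 to 592.0 against 762.9 to 895.2 CPM at E8.5, with 2 of 8 genes called higher and 1 lower, and to 151.9 to 319.7 against 455.1 to 479.3 at E9.5, with 4 higher and none lower. Neural progenitor markers summed to 523.9 to 558.2 against 423.2 to 475.4 CPM at E8.5 (1 of 6 lower) and to 750.5 to 986.3 against 433.5 to 533.9 at E9.5 (6 lower). Forebrain and midbrain markers, of a region that lacks Hox expression, summed to 90.87 to 103.2 against 64.60 to 87.70 CPM at E8.5 (2 of 6 lower, none higher) and overlapped at E9.5 (1 higher, 1 lower). Blood markers summed to 105.1 to 187.0 CPM in KI and to 659.3 or more in every control at E8.5 (1 of 5 lower), and at E9.5 to 415.5 to 2023 CPM in KI, below every control (2 lower). At E9.5 neuron markers summed to 145.1 to 214.3 against 42.59 to 45.90 CPM (4 of 6 lower), and heart markers to 278.1 to 375.6 against 604.6 to 1209 (5 of 5 higher). Extraembryonic endoderm markers summed to 130.9 to 136.2 against 287.4 to 353.8 CPM there (4 of 8 higher), and neural crest markers to 123.3 to 139.2 against 160.9 to 217.4 (2 of 4 higher). Every gene of these lists was read in every group, and the part of these tissues in the Hox differences was not tested.

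In neural progenitors of day 8, several central and posterior genes of the Hoxa, Hoxc and Hoxd clusters were higher in KI, while Hoxb2, Hoxb7, Hoxb8 and Hoxb9 were lower. Of 30 members tested, 15 rose and 4 fell, against 19.5% of all genes called (6.30% higher, 13.2% lower); 8 posterior members had too few reads to test. By cluster, 5 of 6 tested Hoxc, 5 of 8 Hoxa, 4 of 6 Hoxd and 1 of 10 Hoxb members rose. The median log2 fold change over the 30 was 0.41, beside 0.00 over all genes.

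Hoxa10, a lumbar patterning gene, had 0.110 and 0.223 CPM in flox and 7.01 and 5.87 in KI. Hoxa9 had 0.725 and 0.613 CPM in flox and 17.6 and 12.3 in KI (4.48 ± 0.23, edgeR adjusted p = 1.49e-07). Hoxc8, which acts in thoracic vertebrae and brachial motor neurons, had 1.60 and 1.71 CPM against 39.1 and 31.8 (4.41 ± 0.20, edgeR adjusted p = 7.83e-08). The lower KI library of each was above the higher flox library. Hoxc9, a thoracic motor neuron factor, had 0.462 and 0.501 CPM against 10.8 and 6.85 (4.18 ± 0.28, edgeR adjusted p = 9.56e-07). Hoxc10 had no read in flox and 0.288 and 0.140 CPM in KI, at least 3.52-fold higher. Hoxd9 rose from 1.17 and 1.23 CPM to 9.88 and 8.11 (2.91 ± 0.18), Hoxd8 from 11.5 and 10.8 to 55.2 and 57.1 (2.33 ± 0.10) and Hoxa7 from 12.6 and 12.5 to 68.0 and 51.0 (2.25 ± 0.13; edgeR adjusted p = 6.74e-07, 6.73e-08 and 3.49e-07). Smaller rises, between 0.35 and 1.25 on the log2 scale, were called for Hoxa5, Hoxa6, Hoxb1, Hoxc5, Hoxc6, Hoxd1 and Hoxd4.

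Hoxb9 went the other way, from 882 and 866 CPM in flox to 273 and 206 in KI (-1.87 ± 0.20, edgeR adjusted p = 0.000106). It was the most abundant member per length in flox progenitors. Hoxb8 had 590.2 and 586 CPM against 416 and 346 (-0.63 ± 0.12, edgeR adjusted p = 0.00198), and Hoxb2 (-0.67 ± 0.11) and Hoxb7 (-0.55 ± 0.11) were lower too. Hoxb9 and Hoxa9, Hoxc9 and Hoxd9, all of paralog group 9, therefore changed in opposite directions. Because Hoxb9 was so abundant, the posterior share of Hox RPKM fell from 15.9% to 16.1% in flox to 5.38% to 6.26% in KI although 5 of the 8 tested posterior genes rose.

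The 2 flox libraries of day 8 were the most alike of the 23 replicate pairs (chi-square 1.50 per degree of freedom, against 2.76 to 54.83), so their replication may be overstated. Leaving out 1 library, Hoxa5 lost its call without KI 27, flox 1 or flox 2 (edgeR adjusted p = 0.283, 0.212 and 0.257), Hoxb1 without KI 27 (0.0838), Hoxc5 without KI 48 (0.0658) and Hoxd1 without flox 1 or flox 2 (0.0696 and 0.0536). Of the 13 marker lists, the summed CPM of 10 was lower and of 2 higher in KI without overlap. With 2 libraries a group, values separate easily, and the share of all genes that did so was not counted. Neuron markers summed to 980.5 to 985.3 CPM in flox and 668.3 to 745.3 in KI (5 of 6 genes called lower). Hindbrain and spinal cord markers summed to 223.9 to 227.9 against 126.6 to 163.4, but their members went both ways (2 called higher, 2 lower, median log2 fold change -0.16). Extraembryonic endoderm markers (112.2 to 112.7 against 36.54 to 40.70 CPM, 5 of 7 tested genes lower) and limb and lateral plate markers (61.38 to 63.18 against 21.32 to 23.28, 5 of 6 lower) had none called higher. Somite markers summed to 175.0 to 177.3 against 232.3 to 242.6, with 1 gene called higher and 2 lower of 5 tested. Of these 5 lists, 1 somite gene was at 0 reads in KI and no other gene was at 0; their part in the Hox differences was not tested.

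In neurons of day 16, Hoxa9, Hoxa10, Hoxc9 and Hoxc10 were still higher in KI. Of 30 members tested, 15 rose and 6 fell, against 46.9% of all genes called (27.1% higher, 19.7% lower). Hoxa9 had 0.492 and 0.550 CPM in flox and 9.03 and 7.49 in KI (3.99 ± 0.24, edgeR adjusted p = 1.84e-07). Hoxa10 had 0.123 and 0.375 CPM against 3.57 and 4.02 (4.03 ± 0.34, edgeR adjusted p = 2.61e-06). Hoxc9 had 0.299 and 0.400 CPM against 4.95 and 3.87 (3.68 ± 0.30, edgeR adjusted p = 2.26e-06). All 6 tested Hoxc members rose, among them Hoxc10 (3.37 ± 0.55) and Hoxc8, with 11.7 and 10.2 CPM against 50.9 and 36.0 (1.98 ± 0.16). Hoxb13, the last gene of its cluster, had 0.228 and 0.225 CPM in flox and 1.24 and 1.21 in KI (2.42 ± 0.33, edgeR adjusted p = 0.000111), and Hoxb5 had 88.1 and 104 CPM against 195 and 203 (1.06 ± 0.11). The other called rises, of Hoxa4, Hoxa7, Hoxb6, Hoxc4, Hoxc5, Hoxc6, Hoxd8 and Hoxd9, lay between 0.33 and 0.92.

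Hoxb9 remained lower in KI neurons, at 826 and 712 CPM in flox and 342 and 219 in KI (-1.46 ± 0.20, edgeR adjusted p = 0.000257). Hoxd1 had 1.21 and 0.900 CPM against 0.163 and 0.303 (-2.18 ± 0.30, edgeR adjusted p = 0.000115). Hoxd13 had 0.211 and 0.200 CPM in flox and no read in KI, at least 3.48-fold lower. Hoxd13 did not exceed 0.211 CPM in any neural library. Hoxb2 (-0.44 ± 0.12), Hoxb3 (-0.41 ± 0.10) and Hoxd4 (-0.42 ± 0.10) fell by less. Without flox 2 or KI 48, Hoxa4, Hoxb2 and Hoxc6 lost their calls (edgeR adjusted p = 0.0621 to 0.12), as did Hoxa4, Hoxc4 and Hoxc6 in a fit of the neurons alone (0.163, 0.0503 and 0.0682). Of the 13 marker lists, the summed CPM of 9 was lower and of 2 higher in KI without overlap, again with no share over all genes counted. Neuron markers summed to 2622 to 2721 CPM in flox and 4799 to 5431 in KI, the reverse of day 8 (6 of 6 genes called higher). Extraembryonic endoderm (81.74 to 83.72 against 17.34 to 27.51 CPM) and limb and lateral plate markers (33.58 to 34.88 against 14.37 to 16.54) each had 4 genes called lower and 1 higher. Hindbrain and spinal cord markers summed to 157.0 to 177.2 against 134.3 to 134.8 (2 higher, 2 lower). Pluripotency markers summed to 42.56 to 44.56 against 19.85 to 27.40 CPM (3 lower, none higher), and presomitic and tail bud markers to 14.70 to 17.98 against 8.64 to 10.01 (2 lower, none higher). In each genotype 1 pluripotency and 2 tail bud genes were at 0 reads and no gene of the other 4 lists was; the part of these cells in the Hox differences was not tested.

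**Figure D4:**
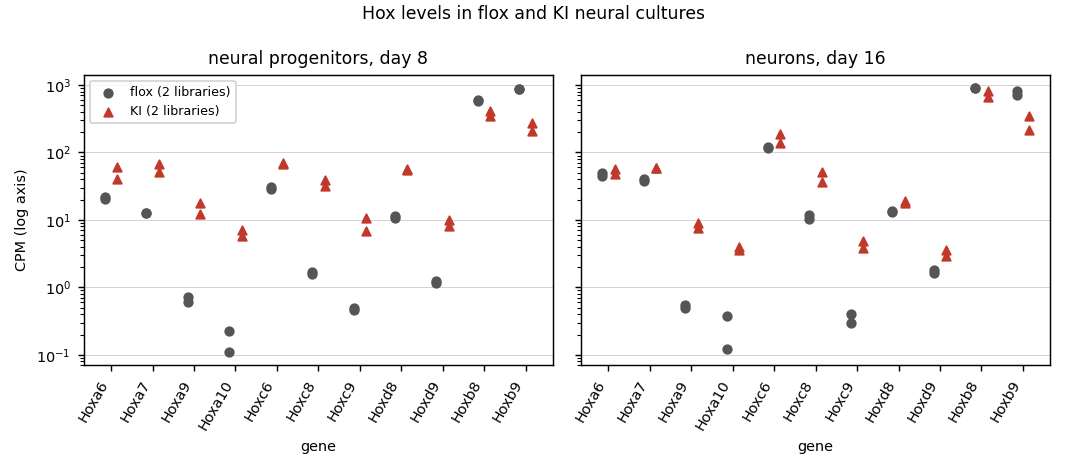
Points are CPM on a log axis of each library (grey circles flox, red triangles KI, 2 libraries each) for 11 members in progenitors (left) and neurons (right). Hoxa9, Hoxa10, Hoxc8 and Hoxc9 lie at 0.110 to 1.71 CPM in flox progenitors and at 5.87 to 39.1 in KI, and Hoxb9 is lower in KI on both days.

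The KI effect itself differed between the 2 days for 13 members, 4 in the higher and 9 in the lower direction, against 33.2% of all genes called. The effect was smaller in neurons for Hoxc8 (difference -2.43 ± 0.25), Hoxd9 (-1.99 ± 0.26), Hoxd8 (-1.86 ± 0.14), Hoxa7 (-1.64 ± 0.17) and Hoxa6 (-1.09 ± 0.23), and larger for Hoxb5 (1.24 ± 0.15) and Hoxb13 (1.96 ± 0.41). With the line or clone as a block, Hoxa10 was called as well (-1.32, edgeR adjusted p = 0.0482). Between the days, Hoxa7 rose in flox (1.62 ± 0.13) from 12.6 and 12.5 CPM to 37.2 and 39.8 and was not called in KI, where it began at 68.0 and 51.0 CPM and ended at 59.2 and 58.2. Hoxc6, a brachial gene, rose in both, from 29.2 and 30.8 to 122 and 115 CPM in flox (1.98 ± 0.13) and from 70.1 and 68.3 to 136 and 189 in KI (1.23 ± 0.13). All 7 anterior members fell from progenitors to neurons in both genotypes. Hoxb1, active early in the hindbrain, fell from 21.9 and 22.6 CPM to 0.0351 and 0.125 in flox and from 39.7 and 31.0 to 0.122 and 0.0758 in KI. In all, 9 members rose and 13 fell over time in flox and 6 rose and 18 fell in KI, against 77.1% and 79.9% of all genes called (38.4% higher and 38.7% lower in flox, 40.7% and 39.2% in KI); with the line as a block Hoxd8 was not called in flox (0.25, edgeR adjusted p = 0.0536). Without flox 1 or flox 2 of the progenitors, 5 rather than 9 members rose in flox.

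In embryoid bodies without added retinoic acid, both KI clones had less of 5 of the 7 anterior genes at day 4 and at day 10. They had more of 10 of the 16 posterior genes at day 10. With 1 flox library a day there is no test for a single day; a member counts as higher or lower where clone 27 and clone 48 each differed from flox by 2-fold or more the same way. The ratios use CPM plus 0.5 and genes that reach 1 CPM in at least 1 library of that day. A member can thus pass through KI or flox alone. With no minimum, the counts of higher and lower members were the same on all 3 days. The averaged effect over the 3 days was tested, and of 37 members it called 1 (Hoxb3, -2.52 ± 0.39, edgeR adjusted p = 0.0385), against 0.730% of all genes. Hoxb3 lost its call without each of the 6 KI libraries (edgeR adjusted p = 0.0701 to 0.164); 1 other member was called without ESC KI 27 and none without each of the other 5. The count rose to 6 without the ESC flox library, where 327 genes in all were called. DESeq2 called 4 members and 778 genes in all, against 121 genes in the main fit.

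At day 4, 6 of 13 members at 1 CPM or more were lower and none higher, against 4.21% of genes lower and 1.52% higher. Of these 6, 5 are anterior. Hoxb1 was at 25.9 CPM in flox and at 2.62 and 3.89 in clones 27 and 48. Hoxb2 was at 15.2 CPM against 1.44 and 1.81, and Hoxb3 at 22.9 against 1.98 and 1.99. Both clones had similar low levels. Hoxa2, Hoxd1 and Hoxd9 were the others, and Hoxa2 passed the minimum of 1 CPM only through flox. Reads of the 38 members were 1762 in the flox library and 393 and 430 in the KI libraries, which had similar depth.

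At day 10, 10 members were higher and 8 lower of 34, against 3.47% of genes higher and 3.82% lower; with a pseudocount of 1 CPM they were 6 and 7. All 10 are posterior: Hoxa9, Hoxa10, Hoxa11, Hoxa13, Hoxc11, Hoxc12, Hoxc13, Hoxd11, Hoxd12 and Hoxd13. The 8 that were lower are Hoxa2 to Hoxa5 and Hoxb1 to Hoxb4. Hoxa13, Hoxc11, Hoxc12, Hoxc13, Hoxd11 and Hoxd12 were below 1 CPM in flox and passed the minimum only through KI. Hoxa2, Hoxa4 and Hoxb1 were below it in both clones and passed only through flox. Hoxa11 was at 1.81 CPM in flox and at 28.1 and 15.9 in clones 27 and 48. Hoxa10 was at 2.03 against 24.2 and 15.4 CPM, and Hoxa13 at 0.942 against 11.02 and 12.8. Hoxd13 was at 1.38 CPM against 18.7 and 6.47, where clone 27 was the higher. Hoxb2 was at 52.8 CPM in flox against 12.8 and 12.5, and Hoxb3 at 32.8 against 10.8 and 10.6. Hoxb9, posterior but of the Hoxb cluster, was at 15.9 CPM against 23.0 and 11.5 and so lay between the clones. Posterior members held 15.9% of Hox RPKM in flox and 65.3% and 54.9% in the clones, while total Hox RPKM was 84.29 in flox and 101.3 and 72.33 in the clones.

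**Figure D5:**
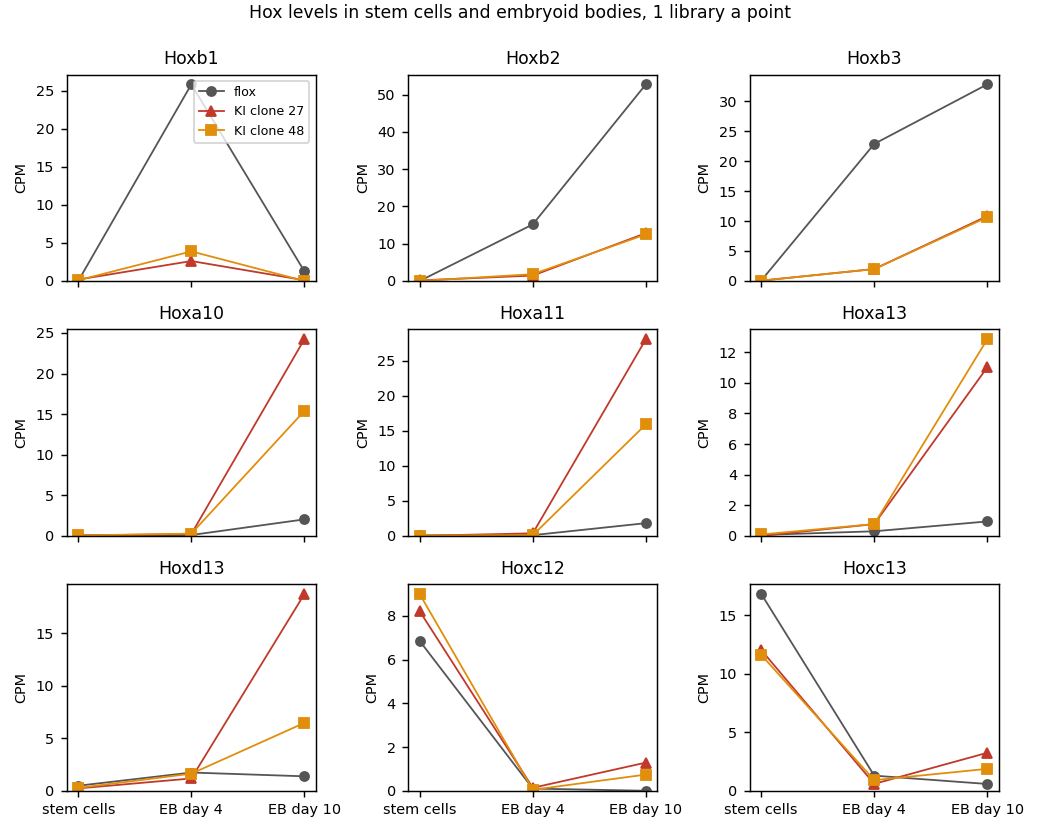
Lines join the CPM of 1 library per point in stem cells, EB day 4 and EB day 10 (grey flox, red KI clone 27, orange KI clone 48), on linear axes from 0. Hoxb1, Hoxb2 and Hoxb3 are higher in flox at day 4, Hoxa10, Hoxa11, Hoxa13 and Hoxd13 higher in the clones at day 10, and Hoxc12 and Hoxc13 drop from stem cells in both.

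In ESCs 5 members reached 1 CPM in a library. Hoxb9 (0.721 CPM in flox, 2.65 and 2.56 in the clones) and Hoxb13 (0.0600 against 0.673 and 1.08) were higher, against 4.77% of genes higher and 2.98% lower. Both were below 1 CPM in flox and passed the minimum only through KI, Hoxb13 through clone 48 alone. Hoxc12 was at 6.85 CPM in flox and 8.21 and 8.99 in the clones, and Hoxc13 at 16.8 and 12.0 and 11.6. Both were lower at day 4, at 0.0993 and 1.29 CPM in flox. Within the KI clones, tested between days, 13 members rose and 8 fell from ESC to day 4, against 50.3% of all genes called. Among them all 6 tested anterior members rose, and 6 of 9 Hoxc members fell. From day 4 to day 10, 30 rose and 1 (Hoxb1) fell, against 73.3% of all genes. With the clone as a block, Hoxa7 was not called and Hoxa11 was called from ESC to day 4 (edgeR adjusted p = 0.0508 and 0.0487). That count of 21 fell to 11 without EB day 4 KI 27 and to 13 without ESC KI 48.

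Markers of other cells differed in these cultures. Of 13 lists, the summed CPM of both clones was above flox for 5 and below for 7 at day 4. It was above for 6 and below for 7 at day 10. With 1 flox library a day, both clones easily fall on 1 side of it, and the share of all genes that did was not counted. At day 4 pluripotency markers summed to 669.6 CPM in flox and 1247 to 1314 in KI, presomitic and tail bud markers to 187.6 and 71.66 to 98.23, and trophoblast markers to 1622 and 662.3 to 681.0. At day 10 heart markers summed to 1766 CPM in flox and 147.8 to 216.3 in KI, and limb and lateral plate markers to 382.7 and 786.7 to 805.4. In the averaged effect over the days no gene of the pluripotency, tail bud or trophoblast list was called, and 1 heart and 1 limb gene were called lower. All genes of the pluripotency, heart and limb lists were read in both genotypes, and the part of these cells in the Hox values was not tested.

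In trophectoderm cultures Hox levels were low, and some members of each of the 4 clusters were called higher in KI. By cluster, 6 of 10 Hoxa, 4 of 10 Hoxb, 6 of 9 Hoxc and 5 of 8 tested Hoxd members rose, and 2 Hoxb members fell. Another 14 members were not called. Of 37 members tested, 21 rose and 2 fell, against 50.9% of all genes called (26.7% higher, 24.2% lower); the median was 0.99, beside 0.01 over all genes. Hoxb9 had 1.20 and 1.23 CPM in flox and 11.02 and 9.71 in KI (3.09 ± 0.16, edgeR adjusted p = 3.34e-09). Hoxd1 had no read in flox and 0.873 and 1.57 CPM in KI, at least 10.6-fold higher. Hoxd11 had 0.0399 and 0.0743 CPM against 1.38 and 1.39 (4.46 ± 0.78, edgeR adjusted p = 0.000266). Hoxb9, which was lower in KI neural cultures, had the largest ratio of change to SE of all members here. Hoxc6 had 2.95 and 3.64 CPM against 8.80 and 11.5 (1.62 ± 0.24), Hoxc9 had 4.27 and 4.72 against 11.05 and 11.03 (1.30 ± 0.18), and Hoxd9, the leading member per length, had 8.26 and 7.80 against 15.0 and 15.4 (0.92 ± 0.15). Hoxa3, which patterns thymus and parathyroid, had 1.48 and 1.08 CPM against 5.93 and 5.05 (2.11 ± 0.21, edgeR adjusted p = 1.51e-06). The other 14 called rises (Hoxa4, Hoxa7, Hoxa10, Hoxa11, Hoxa13, Hoxb6, Hoxb7, Hoxb8, Hoxc4, Hoxc5, Hoxc8, Hoxc10, Hoxd8 and Hoxd13) were of 0.67 (Hoxd8) or more; Hoxa7 overlapped between the genotypes. Hoxb2 (-0.91 ± 0.28) and Hoxb3 (-0.72 ± 0.20) fell.

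Fitted on the TE libraries alone, 14 members were called; Hoxb2 and Hoxb3 were not among them (edgeR adjusted p = 0.102 and 0.103). Leaving out 1 library left 16 to 20 calls, and each of the 4 libraries removed some: Hoxa4, Hoxa7, Hoxa10, Hoxa13, Hoxb2, Hoxb7, Hoxb8, Hoxc4, Hoxc5 or Hoxd8. Cdx2, whose transgene drives this culture and whose product activates Hox genes, differed too: it was 1.92 higher on the log2 scale in KI, and Cdx4 (2.09) and Cdx1 (0.73) were called higher. Of the 13 marker lists, the summed CPM of 6 was higher and of 6 lower in KI without overlap, with no share over all genes counted. Trophoblast markers, Cdx2 among them, summed to 2060 to 2103 CPM in flox and 3384 to 3590 in KI (6 of 8 genes called higher, 1 lower), and pluripotency markers to 759.3 to 775.2 and 314.3 to 404.0 (6 of 6 lower). Neural progenitor (318.7 to 335.4 against 62.22 to 81.67 CPM, 3 of 5 tested genes lower) and neuron markers (96.31 to 100.9 against 18.22 to 20.35, 4 of 4 lower) had none called higher. Hindbrain and spinal cord markers summed to 24.30 to 27.06 against 11.07 to 11.64, with 2 of 6 genes called higher and 2 lower. Forebrain and midbrain markers rose from 7.26 to 9.59 CPM to 10.76 to 14.98 (4 of 6 higher, 0 lower). Extraembryonic endoderm markers rose from 79.82 to 82.63 CPM to 91.96 to 107.5 (4 of 8 higher, 1 lower). In flox, 1 gene of each of these last lists was at 0 reads, and no gene of the other 5 lists was. The part of the transgene and of these cells in the Hox differences was not tested.

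In extraembryonic endoderm cultures 23 of 37 members rose in KI and none fell, against 35.5% of all genes called (18.1% higher, 17.4% lower). All 8 tested Hoxd members were among them, with a median of 1.70, beside 0.00 over all genes; Hoxd12, not tested, had no read in flox and 0.377 and 0.205 CPM in KI, at least 1.89-fold higher. Hoxd1 had 1.65 and 2.85 CPM in flox and 8.49 and 12.1 in KI (2.19 ± 0.37, edgeR adjusted p = 0.000415). Hoxd9 had 5.70 and 6.01 CPM against 14.9 and 16.3 (1.41 ± 0.16, edgeR adjusted p = 9.87e-06). Hoxd11 had 0.800 and 0.316 CPM against 2.36 and 4.92 (2.68 ± 0.55, edgeR adjusted p = 0.00165). Both ends of the Hoxd cluster thus rose together. Hoxa5, which acts in the developing lung and neck, had 26.9 and 30.4 CPM against 64.2 and 63.2 (1.15 ± 0.15, edgeR adjusted p = 3.40e-05), and it led the Hox genes per length in KI. Hoxb9 had 43.8 and 41.0 CPM against 64.6 and 72.0 (0.69 ± 0.10), and Hoxc8 had 16.2 and 17.1 against 25.4 and 35.4 (0.87 ± 0.17). The other called members were Hoxa2, Hoxa3, Hoxa6, Hoxa9, Hoxa11, Hoxb3, Hoxb6, Hoxb8, Hoxc10, Hoxc11, Hoxc12, Hoxc13, Hoxd3, Hoxd4, Hoxd8, Hoxd10 and Hoxd13, between 0.49 and 2.94. Hoxb2 (21.4 and 25.8 CPM against 23.6 and 24.7) and Hoxb4 (21.5 and 24.1 against 23.7 and 21.3) overlapped between the genotypes and were not called.

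Leaving out 1 library left 13 to 20 calls; they fell to 13 without KI 48 and to 15 without flox 1. Hoxa2, Hoxa6, Hoxa11, Hoxb3, Hoxb6, Hoxb8, Hoxc11, Hoxc12, Hoxd10 and Hoxd13 each lost the call in at least 1 such fit, so that 6 of the 8 Hoxd members kept it throughout. Of the 13 marker lists, the summed CPM of 3 was higher and of 6 lower in KI without overlap, with no share over all genes counted. Extraembryonic endoderm markers summed to 932.7 to 961.7 CPM in flox and 231.6 to 238.8 in KI (8 of 8 genes called lower). Trophoblast markers summed to 2113 to 2135 against 2621 to 3135, with 4 of 8 genes called higher, 2 lower and a median log2 fold change of -0.04. Neuron markers summed to 141.5 to 143.0 against 63.35 to 74.50 CPM (2 of 4 tested higher, 1 lower), and limb and lateral plate markers to 107.5 to 118.7 against 54.10 to 74.09 (2 of 5 lower). Forebrain and midbrain markers summed to 42.64 to 43.80 against 23.60 to 23.82 CPM (2 of 6 lower), and somite markers to 4.05 to 6.11 against 8.58 to 13.85 (1 higher, 1 lower). Cdx1 was 2.98 higher in KI on the log2 scale, while Cdx2 and Cdx4 were not called. Of these 6 lists, 1 trophoblast gene was at 0 reads in KI, 1 somite gene was at 0 in each genotype and no other gene was at 0, and the part of these differences in the Hox values was not tested.

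The 6 tested KI comparisons use no library in common, but the same clones recur in the 4 culture comparisons. Hoxc8, Hoxc10, Hoxd8 and Hoxd9 were called higher in KI in all 4, where 6.30%, 27.1%, 26.7% and 18.1% of all genes were called higher. The share of all genes higher in all 4 was not counted. Hoxc10 had 0 reads in both flox progenitor libraries and 2 and 3 in flox neurons, so it passed the filter of the neural fit through KI. Hoxd8 lost its TE call without flox 1, flox 2 or KI 27 (edgeR adjusted p = 0.0765, 0.127 and 0.0958). Some members were called in both directions, among them Hoxb9, lower in both neural comparisons and higher in TE and ExEn, and Hoxa11, higher at E8.5 and lower at E9.5. Hoxb4 was the 1 member called in none of the 6.

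PBX, MEIS and PKNOX genes encode the cofactors that bind DNA with Hox proteins. Of 9 tested, 2 were called higher and 2 lower in KI progenitors, 2 and 1 in neurons, 1 and 4 in TE, 0 and 2 in ExEn, 0 and 1 at E8.5 and 2 and 0 at E9.5. Of all genes, 19.5%, 46.9%, 50.9%, 35.5%, 5.46% and 29.5% were called in these 6 comparisons, against which these counts out of 9 are read. Meis2 was lower in TE (-1.18). Meis1 was higher in progenitors (0.32) and at E9.5 (0.31).

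Of 12 genes of retinoic acid synthesis, breakdown and response, 2 were called higher and 5 lower in progenitors, and 0 and 9 in neurons. Aldh1a2, which makes retinoic acid, was lower in progenitors (-3.64), neurons (-5.35), E8.5 (-1.24) and E9.5 embryos (-1.21) and higher in ExEn (1.31). Cyp26a1 (-1.60) and Cyp26b1 (-2.42), which degrade it, were lower in progenitors. In TE 1 was called higher and 8 lower, in ExEn 2 and 5, at E8.5 0 and 3 and at E9.5 3 and 3. The shares of all genes called lower were 13.2% in progenitors, 19.7% in neurons, 24.2% in TE, 17.4% in ExEn, 1.83% at E8.5 and 14.9% at E9.5, and those called higher 6.30%, 27.1%, 26.7%, 18.1%, 3.63% and 14.6%.

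Among 11 upstream factors, 1 was called higher and 4 lower in progenitors, 4 and 3 in neurons, 3 and 4 in TE, 1 and 4 in ExEn (10 tested in each of these), 0 and 2 at E8.5 and 5 and 3 at E9.5 (11 tested), beside 19.5%, 46.9%, 50.9%, 35.5%, 5.46% and 29.5% of all genes called in either direction. Wnt3a, a tail bud signal upstream of posterior Hox genes, was lower at E8.5 (-1.17) and E9.5 (-0.96). Lin28a (0.55) and Nr6a1 (0.52), which are linked to trunk rather than tail formation, were higher at E9.5. Gdf11, which promotes the switch to the most posterior Hox genes, was lower at E9.5 (-0.48) and not called at E8.5 (-0.23). Lin28b was lower at both stages (-0.51 and -0.28). Cdx2 was lower in progenitors (-1.90) and not called in embryos, and Cdx4 was higher at E9.5 (0.86).

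Polycomb and Trithorax genes, whose products hold Hox genes off or on, were tested in the same way. Of 17 tested, 3 were called higher and 1 lower in progenitors, 1 and 3 in neurons, 10 and 3 in TE, 3 and 5 in ExEn, 0 and 2 at E8.5 and 5 and 3 at E9.5, beside the same shares of all genes (19.5%, 46.9%, 50.9%, 35.5%, 5.46% and 29.5%). Cbx7, a Polycomb subunit, was higher in progenitors (1.53), neurons (1.59), TE (0.57), ExEn (0.29) and E9.5 embryos (1.07) and was not called at E8.5. Ezh2, the main Polycomb methyltransferase, was lower in neurons (-0.37), TE (-0.35), ExEn (-0.64), E8.5 (-0.19) and E9.5 embryos (-0.17). Of the 6 genes of the tables that flank the clusters or are noncoding genes in them, 4 were tested in each culture and 6 in embryos. Of these, 1 was called higher and 2 lower in progenitors, 1 and 0 in neurons, 1 and 1 in TE, 0 and 0 in ExEn, 0 and 0 at E8.5 and 2 and 0 at E9.5, beside the shares of all genes just given. Evx1, which lies next to Hoxa13, was higher in TE (4.51) and at E9.5 (0.65) and lower in progenitors (-1.77). Evx2, the neighbour of Hoxd13, had enough reads in embryos only among the 6 comparisons and was not called at either stage (0.31 and 0.78), also at E9.5, where Hoxd13 fell.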

How the data were processed

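The deposited tables give whole-number read counts per transcript, made by the authors, per the file headers; the submitters' processing notes name bcl2fastq, Bowtie2, STAR, SICER 1.1 and mm9 without roles. Libraries were poly(A) selected, per the labels' protocols, and the use of strand is not given in the sources used here. The deposited RPKM values, also made by the authors per the file headers, served only for levels per length and shares. For each gene the transcript with the most reads was kept (28436 of 29082 accessions matched a symbol). Samples were grouped from their titles; 63 of 100 samples were not analysed here. Gene-level totals ran from 18.9 to 59.9 M.

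Counts were tested with edgeR 4.0.16 in R 4.3.3 (limma 3.58.1): filterByExpr (10 reads), TMM scaling, robust glmQLFit, glmQLFTest and Benjamini-Hochberg adjustment over all genes tested (threshold 0.05). The neural, the TE and ExEn, the embryo, and the stem cell and EB libraries were each fitted together; the last with day as a factor, and KI days in a fit of their own. The SE of a log2 fold change is its size over the root of the test's F value. CPM are TMM-scaled within each fit, except those of summed Hox reads. Scripts were tested on simulated data.

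Called members are named in each KI comparison, those with the smallest adjusted p (up to 10 a direction) with values, and up to 4 genes a pathway list by adjusted p; Cdx1, Cdx4, Gdf11, Lin28b, Meis2, Aldh1a2, Cyp26b1 and Ezh2 were followed across comparisons after their values were seen. The members, position classes and gene lists were chosen with earlier results of these data known. Title numbers paired E8.5 embryos (correlations of deviations 0.34, 0.40 and 0.18 across genes); at E9.5, where 1 number covers several embryos, they ran from -0.00 to 0.22, against -0.21 to -0.06 for different numbers. Neural and EB libraries of different days share lines or clones. Alternatives were DESeq2 1.42.0, RLE size factors, no filter, the sum over transcripts, only the groups compared, a replicate block, each replicate left out, and for single EB days a pseudocount of 1 CPM in place of 0.5 and no minimum in place of 1 CPM.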

Additional observations from a re-analysis of the deposited data

Results flagged for a closer look

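In the neural cultures the KI effect differed between neurons and progenitors, by the interaction test, for 13 members. The differences (neurons minus progenitors, log2) were -1.09 for Hoxa6, -1.64 for Hoxa7, 1.24 for Hoxb5, 0.71 for Hoxb6, 1.96 for Hoxb13, 0.57 for Hoxc4, -0.75 for Hoxc6, -2.43 for Hoxc8, -2.95 for Hoxd1, -0.95 for Hoxd4, -1.86 for Hoxd8, -1.99 for Hoxd9 and -5.72 for Hoxd13. Of these, Hoxd1 and Hoxd4 were called higher in KI progenitors and lower in KI neurons. Hoxd13 had no read in KI neurons, so its fitted difference depends on the prior count, and it lost its call without each of 6 of the libraries.

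In embryos the KI effect differed between E9.5 and E8.5 for 11 members (E9.5 minus E8.5, log2): -1.94 for Hoxa10, -3.04 for Hoxa11, -2.52 for Hoxa13, -4.58 for Hoxc11, -11.09 for Hoxc12, -3.61 for Hoxc13, 0.81 for Hoxd1, -1.82 for Hoxd10, -4.04 for Hoxd11, -9.93 for Hoxd12 and -3.29 for Hoxd13. Hoxc12 and Hoxd12 had no read in E9.5 KI embryos, and 0 to 11 and 0 to 2 reads in each E8.5 embryo. Their fitted differences therefore depend on the prior count. Hoxa11, Hoxc11 and Hoxd11 were called higher in KI at E8.5 and lower at E9.5.

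Hoxb3 was called lower in KI TE (-0.72) and higher in KI ExEn (0.49); the difference between these cultures was not tested.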

How the results depend on the processing

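No called member of the KI comparisons and of the differences between days or stages reversed under the alternatives run for them; reversals were not examined for comparisons over time or for single EB days. Fitted on the groups compared alone, TE gave 14 calls in place of 23. In the averaged EB effect, DESeq2 gave 4 calls and the fit with no filter 2, in place of 1 (778 and 130 over all genes in place of 121). Past 2-fold in ESCs, 1 member counted with a pseudocount of 1 CPM in place of 2. With 1 library left out, calls ran from 13 to 20 in ExEn (23 with all), 2 to 6 at E8.5 (7), 11 to 16 for KI embryos over time (19), 0 to 6 for the averaged EB effect (1; 6 without the ESC flox library, 2 without the EB day 4 flox library), 11 to 14 for KI clones from ESC to day 4 (21) and 1 to 2 for ESCs (2, 1 without KI 48). The cause of these changes was not tested. Total counts in the other comparisons stayed within 1.5 times under the alternatives run. Of counts by direction there, rises in flox neural cultures over time went from 9 to 5 without NPC flox 1 or flox 2, falls in control embryos over time from 3 to 5 without E9.5 control 3, and higher members at EB day 10 from 10 to 6 with a pseudocount of 1 CPM. Fits that leave a group with 1 library assume that it varies like the others.

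With the title number as a replicate block, 10 members were called at E8.5, 13 at E9.5 and 13 for the difference of the stages. Over all genes the block gave 1304, 5284 and 1547 calls, in place of 843, 4560 and 1024. For the difference, Hoxd4 (-0.35) and Hoxd9 (-0.49) were added. At E9.5, where same-numbered pairs correlated at -0.00 to 0.22 and pairs of different numbers at -0.21 to -0.06, Hoxb7 (-0.39) and Hoxc8 (0.37) were added. With the line or clone as a block the neural counts were 14, 21 and 25 (difference, flox and KI over time; Hoxc8 added in KI, 0.28) and those of the KI clones in EBs 21 and 31. No paired analysis was possible within a neural, TE or ExEn comparison because flox and KI share no number, or for embryos of 1 genotype between stages because numbers are nested in stage; these block fits could not be run.

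Too few reads to test were found for 8 posterior genes in neural cultures, Hoxd12 in TE and ExEn, Hoxb13 in embryos, Hoxa6 in the averaged EB effect and Hoxa2, Hoxa4 and Hoxa6 between KI days.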
